A study of Mus musculus with 6 samples.

Results

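Aminoacyl-tRNA synthetases are the enzymes that load each transfer RNA with its amino acid. Their transcripts were read in RNA from tumor macrophages, in libraries labelled wt and libraries labelled knockdown. The labels do not name the gene, which the title and methods of the study give as Npm1, and the knockdown libraries carry ko in their titles. The family was taken by gene symbol, as every gene named by 1 letter for an amino acid followed by ars, with or without a closing 1, 2 or 3, plus Eprs, Farsa and Farsb. This gave 37 of the 22377 genes in the count table. Of these, 20 symbols without a closing 2 were counted as cytosolic and 17 symbols ending in 2 as mitochondrial, and all 37 passed the filter on low counts. Tarsl2, a cytosolic threonyl-tRNA synthetase-like gene, lies outside this naming rule.

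A synthetase recognises 1 amino acid and the set of transfer RNAs that carry it, and joins them in an ATP-dependent reaction before the charged transfer RNA goes to the ribosome. Cytosolic and mitochondrial translation mostly use separate nuclear-encoded enzymes, while Gars and Kars each give a protein for both compartments. In mammals, several cytosolic enzymes sit together in a multi-synthetase complex held by the scaffold proteins Aimp1, Aimp2 and Eef1e1. Many cytosolic synthetase genes are targets of ATF4, the transcription factor of the amino acid response, and tryptophanyl-tRNA synthetase is also known as an interferon-gamma target.

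There were 3 wt and 3 knockdown libraries, described by the depositors as separate biosamples. A legend of the study gives fewer mice per group for its RNA-seq comparison than there are libraries here, so some libraries may share an animal, and p-values measure only the spread between libraries, which may be technical. By the methods of the study, CD45+ CD11b+ F4/80+ cells were sorted from subcutaneous LLC tumors, a mouse lung carcinoma line, grown in young adult Npm1+/+ and Npm1+/- mice of both sexes. The methods name no promoter or Cre that limits the Npm1+/- allele to macrophages. The labels name tumor tissue as the source in place of sorted cells and describe a small RNA library protocol, whereas the methods describe amplified cDNA.

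Npm1 itself was read at 142, 380 and 381 CPM in the wt libraries, a read count scaled to library size with edgeR's trimmed mean of M-values (TMM). It was read at 441, 499 and 343 CPM in the libraries labelled knockdown. The groups overlapped, with a log2 fold change of 0.51 (SE 0.36, edgeR adjusted p = 0.436), so the transcript did not separate the groups in the direction of the label. The libraries held 36550775 to 38147320 counts each. Wt replicate 1 stood apart on the first principal component, at -108 against -4.54 to 52.0 in the other 5. It also had low levels of proliferation genes, whose summed level over 12 genes was 226 CPM there, 549 and 475 CPM in the other wt libraries and 563 to 795 CPM in the knockdown libraries. The 10 macrophage markers summed to 15800 to 21200 CPM in wt and 9430 to 15700 CPM in knockdown. Lyz2 made up most of it, at 14100, 10400 and 9350 CPM in wt and 7500, 5670 and 9700 CPM in knockdown, with overlap. Of the 10 markers, 6 were wholly lower in knockdown, beside 12.6% of all genes. The 9 fibroblast markers summed to 24.0, 478 and 276 CPM in wt and 689, 545 and 346 CPM in knockdown. Most of that sum was Col3a1, at 19.0, 426 and 245 CPM in wt and 604, 474 and 308 CPM in knockdown. The 6 epithelial or carcinoma markers summed to 35.2, 137 and 79.9 CPM in wt and 191, 183 and 129 CPM in knockdown. Most of this was Krt8, at 9.9, 117 and 59.1 CPM in wt and 171, 165 and 105 CPM in knockdown. The 7 T and NK cell markers measured summed to 31.1 to 74.9 CPM against 66.0 to 188 CPM, and the 7 neutrophil markers to 1210 to 1520 CPM against 572 to 1200 CPM. Malat1, a nuclear non-coding RNA, was wholly higher in knockdown, with a log2 fold change of 0.59 (SE 0.23). The part of these levels in the results on synthetases was not tested. No list had its defining markers at 0 in every library. In bulk RNA, fewer cells of a type and less RNA per cell cannot be told apart.

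The sequences that bear on the family are shown first. ATF4 binds, with its partners, to an element whose core was searched here as TGATGNAA on both strands of the stretch from 250 bases before to 50 bases after each gene's start in RefSeq (GRCm38.p6). Of the 37 genes, 27 had such a stretch, 13 cytosolic and 14 mitochondrial. The element was found in 5 of the 27 genes, all cytosolic, which is 18.5%. Of all 32851 promoter stretches, 3.97% held it. The share of the family is counted by gene, and the share of all promoters by stretch. A gene can have several stretches, so these shares cannot be compared directly. Whether the element is more frequent in the family than in other genes was not tested. The 5 were Aars, Gars, Iars, Tars and Yars, for alanine, glycine, isoleucine, threonine and tyrosine. One stretch of each is printed on its gene's own strand with the element in capitals, so that an element on the opposite strand reads as its reverse complement. For Aars and Yars the RefSeq gene span begins farther upstream than the start used in the promoter table, and the distances are counted from the latter. The stretches are shown because their genes did not share a direction in these libraries.

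Aars, chr8:111033841-111033868, + strand, element from base 10 after the start: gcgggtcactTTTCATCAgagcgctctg

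Gars, chr6:55037961-55037988, + strand, element 30 bases before the start: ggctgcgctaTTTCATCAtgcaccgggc

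Tars, chr15:11399656-11399683, - strand, element 15 bases before the start: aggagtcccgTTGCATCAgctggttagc

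Iars, chr13:49682127-49682154, + strand, element from base 8 after the start: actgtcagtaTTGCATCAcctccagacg

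Yars, chr4:129189896-129189923, + strand, element from base 4 after the start: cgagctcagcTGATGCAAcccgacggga

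The family as a whole differed little between the groups. No synthetase passed an adjusted p of 0.05 in edgeR's quasi-likelihood test, where 0 of 13884 genes did (0%), and the smallest adjusted p among the 37 was 0.328. At an unadjusted p under 0.05, 4 synthetases were higher in knockdown (Lars2, Iars2, Rars and Eprs), against 6.9% of all genes, and 3 were lower (Cars, Wars1 and Aars), against 8.31%. DESeq2 called 36 of 13699 genes (0.263%), of which 1 was a synthetase, Lars2. Limma on log2 FPKM plus 1 called 0 genes, with 2774 at an unadjusted p under 0.05.

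The median log2 fold change of the 37 was 0.077, beside 0.022 for all genes tested. Of the 37, 26 had a positive estimate (70.3%), beside 52.1% of all genes. Leaving out wt replicate 1 gave 27 positive estimates of 37 and a median of 0.129, beside 0.026 for all genes. The 3 values of one group lay wholly above those of the other for 10 synthetases higher in knockdown and 5 lower, where 13.3% and 12.6% of all genes did the same. The split between the directions depended on the scaling. On FPKM (counts scaled to gene length and library size, without the TMM factors) 14 were wholly higher and 2 wholly lower, beside 18.6% and 6.88% of all genes. Without wt replicate 1 the counts were 13 and 7, beside 16.6% and 15.2% of all genes.

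**Figure D1:**
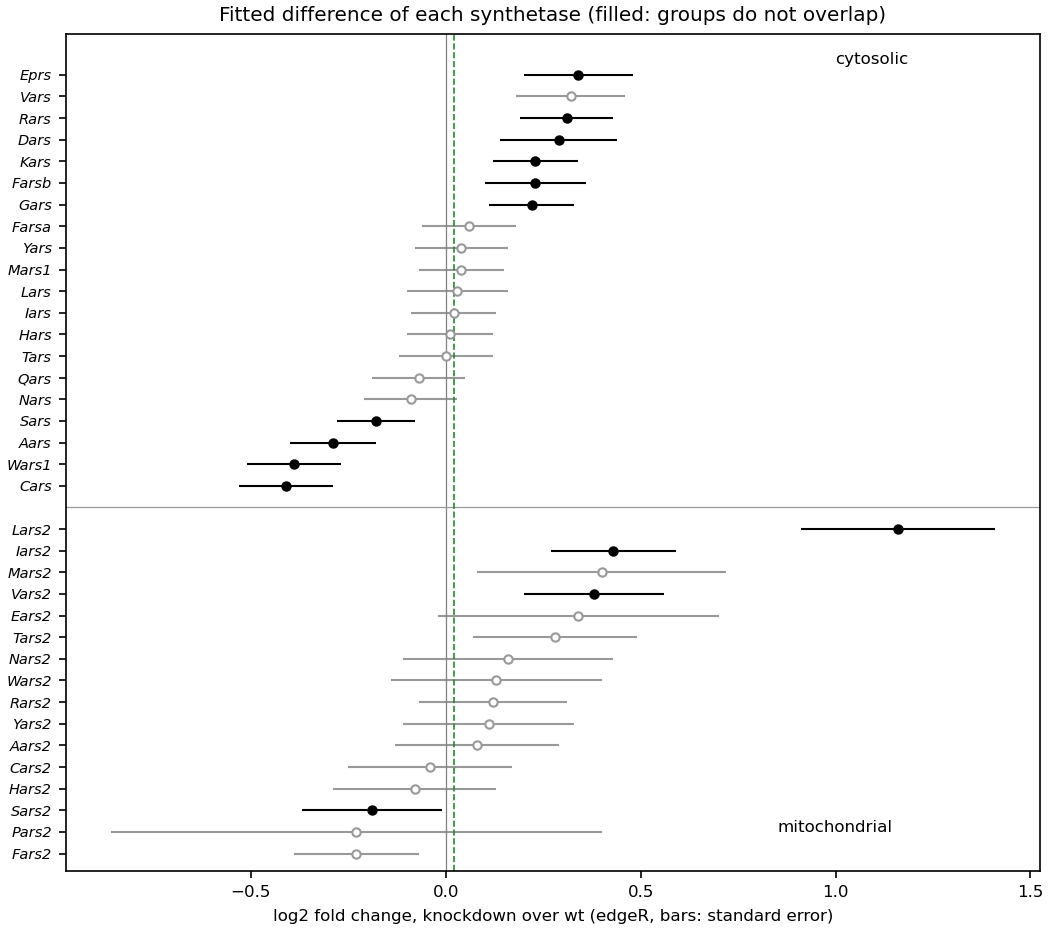
Fitted log2 fold change of each synthetase transcript reported here, knockdown over wt, with its standard error, cytosolic enzymes above and mitochondrial below. Filled points mark genes whose 3 knockdown libraries do not overlap the 3 wt libraries in TMM-scaled CPM, and the dashed line is the median of all genes tested, 0.022. Cytosolic estimates lie between -0.41 and 0.34, and Lars2 stands alone at 1.16.

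The cytosolic enzymes varied little between the libraries of a group. Their median SD within a group was 0.1 on the log2 CPM scale, beside 0.24 for the mitochondrial enzymes and 0.276 for all genes tested. Most mitochondrial enzymes had fewer counts, and the part of counting error in these SDs was not tested. The median log2 fold change of the cytosolic enzymes was 0.033, with 14 of 20 positive and a range from -0.41 to 0.34. For the mitochondrial enzymes it was 0.132, with 12 of 17 positive and a range from -0.23 to 1.16. The gap between the compartments was not kept in every setting. The mitochondrial median was 0.203 without wt replicate 1 and -0.01 without knockdown replicate 2, and on log2 FPKM plus 1 the cytosolic minus mitochondrial median was 0.01.

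Within the cytosol, the 8 enzymes of the multi-synthetase complex had a median log2 fold change of 0.133. Of these, 7 had positive estimates, where 52.1% of all genes did, and 4 had groups that did not overlap, all higher in knockdown, where 13.3% of all genes did. Without wt replicate 1 the median was 0.084 with 6 positive, and without knockdown replicate 3 as well it was 0.101 with 5 positive. The 4 were Eprs, Rars, Dars and Kars. Their order by level, per length in FPKM over all libraries, was Qars at 52.7, Kars at 40.0, Rars at 33.3, Dars at 28.6, Eprs at 18.8, Lars at 14.4, Iars at 11.3 and Mars1 at 10.7. The ranges of some neighbours in that order overlapped over the 6 libraries, as for Rars and Dars, although Rars was above Dars in each of them.

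Eprs, the joined glutamyl- and prolyl-tRNA synthetase (chr1:185361417-185428360), was read at 88.6, 117 and 118 CPM in wt. It was read at 139, 136 and 134 CPM in knockdown. This gave a log2 fold change of 0.34 (SE 0.14, edgeR adjusted p = 0.328). The knockdown libraries were nearly equal, and wt replicate 1 was the lowest of the 6. Without it the estimate was 0.21.

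Rars, which charges arginine transfer RNA (chr11:35808381-35834528), was at 59.4, 71.4 and 66.3 CPM in wt and at 81.8, 85.2 and 76.8 CPM in knockdown. The log2 fold change was 0.31 (SE 0.12, adjusted p = 0.328). The nearest libraries of the groups, at 71.4 and 76.8 CPM, were closer than the SD of 6.03 CPM among the wt libraries.

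Dars, for aspartate, was at 50.5, 69.5 and 71.6 CPM in wt and at 79.6, 78.6 and 76.8 CPM in knockdown. The fitted log2 fold change was 0.29 (SE 0.15, adjusted p = 0.35). Wt replicate 1 was the lowest library by a wide margin, and without it the estimate was 0.15.

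Kars, for lysine in both compartments, was at 80.9, 93.6 and 82.6 CPM in wt and at 106, 101 and 94.4 CPM in knockdown. The estimate for Kars was 0.23 (SE 0.11, adjusted p = 0.344). Wt replicate 2 and knockdown replicate 3 lay less than 1 CPM apart.

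The other complex members were almost level. Iars, Lars and Mars1 had log2 fold changes of 0.02 (SE 0.11), 0.03 (SE 0.13) and 0.04 (SE 0.11). The Iars transcript shares 1656 bases at 96.0% identity with the processed pseudogene Gm4849, so its counts are uncertain to that extent. Qars, the glutaminyl enzyme, was at 150, 128 and 127 CPM in wt and at 133, 122 and 130 CPM in knockdown. Its estimate of -0.07 (SE 0.12) was the 1 negative value of the complex, and the groups overlapped. The estimate became positive on FPKM and without wt replicate 1.

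The 12 cytosolic enzymes outside the complex had a median log2 fold change of 0.006 (0.029 without wt replicate 1), and they divided in direction. Groups did not overlap for Gars and Farsb, higher in knockdown, and for Cars, Wars1, Aars and Sars, lower in knockdown.

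Cars, the cysteinyl-tRNA synthetase (chr7:143557230-143600090), had the lowest estimate of the family. It was read at 38.8, 40.1 and 43.0 CPM in wt. It was read at 29.8, 31.1 and 30.8 CPM in knockdown. The log2 fold change was -0.41 (SE 0.12, adjusted p = 0.328). Every knockdown library lay below every wt library, by more than 7 CPM.

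Wars1, the tryptophanyl enzyme (chr12:108860030-108894175), was at 52.3, 48.0 and 46.9 CPM in wt and at 37.8, 33.9 and 40.3 CPM in knockdown. The log2 fold change of Wars1 was -0.39 (SE 0.12, adjusted p = 0.328). Cars and Wars1 were the only synthetases wholly lower in knockdown on the FPKM scale as well as on TMM-scaled CPM. Among 13 other interferon-gamma targets tested, 3 had positive estimates, where 52.1% of all genes did, and the median log2 fold change was -0.407. None passed an adjusted p of 0.05, and 6 were lower and 1 higher at an unadjusted p under 0.05, beside 8.31% and 6.9% of all genes. The part of that pathway, or of the lower macrophage markers, in the level of Wars1 was not tested.

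Aars, the alanyl enzyme (chr8:111027778-111055569), was at 96.9, 102 and 85.3 CPM in wt and at 75.7, 76.5 and 80.6 CPM in knockdown. Its log2 fold change was -0.29 (SE 0.11, adjusted p = 0.328). On FPKM the groups overlapped, at 14.2, 14.9 and 13.2 in wt and 12.5, 13.8 and 12.3 in knockdown. Its longest annotated transcript ends in 1326 bases that are also the first 1326 bases of Exosc6, on the same strand, so reads there could belong to either gene.

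Sars, for serine, was at 114, 107 and 106 CPM in wt and at 99.4, 91.1 and 97.0 CPM in knockdown. Its log2 fold change was -0.18 (SE 0.10, adjusted p = 0.366), and its groups overlapped on FPKM.

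Gars, the glycyl enzyme of both compartments, went the other way. It was at 89.9, 104 and 94.9 CPM in wt and at 112, 115 and 110 CPM in knockdown. The log2 fold change was 0.22 (SE 0.11, adjusted p = 0.339). Farsb, a subunit of the phenylalanyl enzyme, was at 26.5, 30.9 and 28.5 CPM in wt and at 34.2, 31.0 and 35.4 CPM in knockdown. The log2 fold change of Farsb was 0.23 (SE 0.13, adjusted p = 0.37), and its nearest libraries, at 30.9 and 31.0 CPM, were almost equal. Its partner subunit Farsa had an estimate of 0.06 (SE 0.12), and its groups overlapped. Farsa was the more abundant subunit per length, at 22.8 FPKM against 4.92 FPKM, a gap that depends on the gene lengths behind FPKM. In CPM the means over all libraries were closer, at 41.4 for Farsa and 31.1 for Farsb.

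Vars, for valine, had an estimate of 0.32 (SE 0.14, adjusted p = 0.329) from 108, 122 and 112 CPM in wt and 149, 159 and 118 CPM in knockdown. Its groups overlapped in CPM through knockdown replicate 3. On FPKM they did not, at 12.3, 13.8 and 13.4 in wt and 19.0, 22.2 and 13.9 in knockdown, and Hars, Iars and Yars were also wholly higher on that scale. Nars, for asparagine, had the highest mean level per length over all libraries, at 73.6 FPKM. In knockdown Nars and Lars2 were close, at 75.1 ± 1.87 and 72.3 ± 4.38 FPKM (SD, n = 3), and their libraries overlapped. It was level, at 204, 206 and 184 CPM in wt and 191, 171 and 197 CPM in knockdown, with an estimate of -0.09 (SE 0.12). Hars, Tars and Yars had estimates of 0.01, 0.00 and 0.04.

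**Figure D2:**
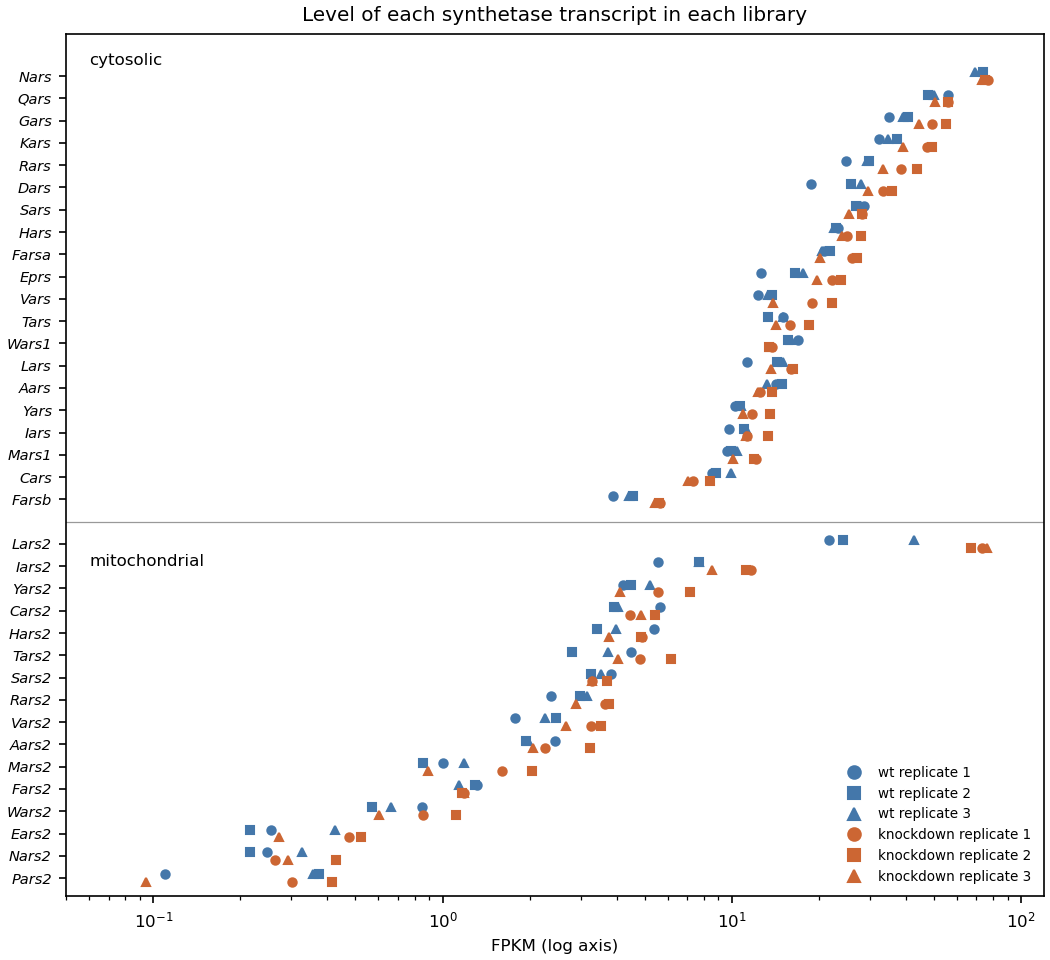
FPKM of each synthetase transcript reported here in each of the 6 libraries, on a log axis, cytosolic enzymes above and mitochondrial below, each ordered by mean level. Most mitochondrial enzymes lie below the cytosolic ones, and Lars2 lies among the highest of the family, at 21.7 to 42.7 in wt and 67.5 to 76.2 in knockdown.

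The 12 synthetases listed as ATF4 targets had a median log2 fold change of 0.010, with 7 positive. Without wt replicate 1 the median was -0.05, with 5 positive. The 8 cytosolic enzymes outside that list had a median of 0.227 with 7 positive, and of 0.159 with 8 positive without that library. Both lists are small and came from background knowledge, and the difference between them was not tested. The 5 genes with the element printed above had estimates of -0.29 (Aars), 0.00 (Tars), 0.02 (Iars), 0.04 (Yars) and 0.22 (Gars). Aars and Gars, which both carry the element in the printed stretches, had estimates on opposite sides of 0. Neither passed an adjusted p of 0.05 in edgeR, and the Aars groups overlapped on FPKM. The part of the element in these estimates was not tested.

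Other genes of the amino acid response gave a mixed picture. Atf4 itself was at 361, 317 and 305 CPM in wt and at 464, 515 and 386 CPM in knockdown, with no overlap and a log2 fold change of 0.47 (SE 0.15, adjusted p = 0.328). Asns, the asparagine synthetase that is a classic ATF4 target, was at 12.2, 28.8 and 21.3 CPM in wt and at 40.1, 38.0 and 30.1 CPM in knockdown, with a log2 fold change of 0.80 (SE 0.30). Psat1, of serine synthesis, had an estimate of 0.30 (SE 0.13).

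For 4 other genes of the list the groups overlapped. Estimates were 0.24 (SE 0.21) for Ddit3, 0.18 (SE 0.26) for Trib3, -0.45 (SE 0.34) for Chac1 and 0.19 (SE 0.35) for the cystine carrier Slc7a11. The end of Ddit3 overlaps that of Mars1 on the other strand. The largest positive estimates of the list were those of Slc1a4, a neutral amino acid carrier, at 1.08 (SE 0.58), and of Phgdh, the first enzyme of serine synthesis, at 1.00 (SE 0.53). In both, wt replicate 1 was far below the other libraries. The lowest were Cebpb at -0.82 (SE 0.28) and Ddit4 at -0.67 (SE 0.19), both wholly lower in knockdown. Of the 30 genes tested, 20 had positive estimates with a median of 0.192, where 52.1% of all genes were positive. At an unadjusted p under 0.05, 4 were higher and 2 lower, beside 6.9% and 8.31% of all genes, and none passed an adjusted p of 0.05.

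The proteins that hold and serve the cytosolic enzymes had small positive estimates throughout. All 12 genes of the list were above 0, with a median of 0.274 and a range from 0.03 to 0.50. Among all genes 52.1% were above 0. None of the 12 passed an adjusted p of 0.05. At an unadjusted p under 0.05, 2 were higher, against 6.9% of all genes (Eef1d and Eef1g, subunits of the elongation factor that recharges Eef1a1), and 5 were wholly higher, against 13.3%. The 3 scaffolds overlapped between groups, at 0.18 (SE 0.12) for Aimp1, 0.27 (SE 0.18) for Aimp2 and 0.28 (SE 0.17) for Eef1e1. Xpot, which exports transfer RNA from the nucleus, was at 49.1, 64.8 and 61.2 CPM in wt and at 67.8, 69.1 and 65.8 CPM in knockdown, with an estimate of 0.21 (SE 0.13). The largest estimate, 0.50 (SE 0.32), was that of Dtd1, which removes D-amino acids from transfer RNA. Leaving out wt replicate 1 kept all 12 above 0. For scale, the 103 cytosolic ribosomal protein genes tested had a median of 0.070 (0.106 without wt replicate 1) and the 54 initiation factor genes one of 0.064.

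**Figure D3:**
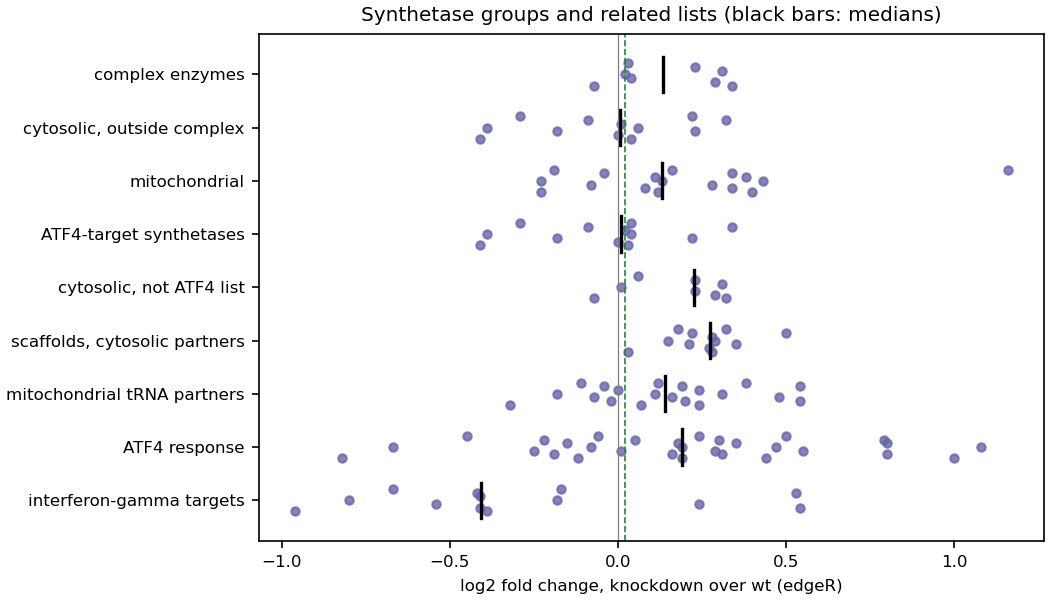
Fitted log2 fold change of every gene tested in 9 lists, knockdown over wt, with each list's median as a black bar and the median of all genes tested, 0.022, as a dashed line. Medians run from -0.407 for interferon-gamma targets to 0.274 for the scaffolds and cytosolic partners, and Lars2 is the single point above 1 among the synthetases.

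Among the mitochondrial enzymes, Lars2, which charges mitochondrial leucine transfer RNA (chr9:123366927-123462675), differed most from the rest of the family. It was read at 103, 115 and 192 CPM in wt, from 3662, 4085 and 7175 counts. It was read at 308, 260 and 347 CPM in knockdown, from 12119, 10913 and 12703 counts. The log2 fold change was 1.16 (SE 0.25), a 2.23-fold higher level in knockdown. Wt replicate 3 was the highest of its group, and the lowest knockdown library was still above it.

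The call on Lars2 depended on the tool. In edgeR its unadjusted p was 0.0019 and its adjusted p 0.328. In DESeq2 its log2 fold change was 1.14 with an adjusted p of 0.0262. In DESeq2 without wt replicate 1 and knockdown replicate 3 it was 0.85 with an adjusted p of 0.00435, a setting in which 10.6% of genes passed. Leaving out each library in turn kept the edgeR estimate between 0.99 and 1.47.

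Part of the Lars2 transcript is shared with other genes, which bears on what its counts hold. In the longest annotated transcript, Lars2-201 of 3894 bases, the stop codon ends at base 2908, and bases 3278 to 3349 in the 3' UTR match Gm15564 over 72 bases at 98.6% identity. Bases 3233 to 3329 match AA474408 over 97 bases at 94.8% identity. Among the GENCODE vM21 transcripts searched, no other gene shared at least 50 bases at 90% identity with Lars2-201. Sequence outside that set, including any ribosomal RNA not annotated there, was not searched. AA474408 was not found by that symbol among the genes counted. The first 30 bases of the Gm15564 match, identical in both transcripts, are shown because a read lying wholly within this stretch cannot be placed by sequence.

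Lars2 and Gm15564, bases 3278 to 3307 of Lars2-201: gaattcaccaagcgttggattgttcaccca

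Gm15564 itself held only 6 to 11 counts in each library, too few for the filter. Gm26917, a non-coding transcript known for collecting reads that resemble ribosomal RNA, was looked at after its values were seen. It was at 1430, 1660 and 1690 CPM in wt and at 2420, 2080 and 2660 CPM in knockdown, without overlap. Its log2 fold change was 0.58 (SE 0.16, edgeR adjusted p = 0.328). AY036118, a transcript looked at beside it, overlapped between groups, at 2.22, 9.53 and 5.91 CPM in wt and 6.16, 6.47 and 6.87 CPM in knockdown. The log2 fold change of AY036118 was 0.14 (SE 0.46). Lars2 CPM was 7.18%, 6.93% and 11.4% of Gm26917 CPM in wt. In knockdown it was 12.7%, 12.5% and 13.1%, without overlap. The part of the shared stretch, or of reads that resemble ribosomal RNA, in the Lars2 counts was not tested, and this ratio is no test of it.

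**Figure D4:**
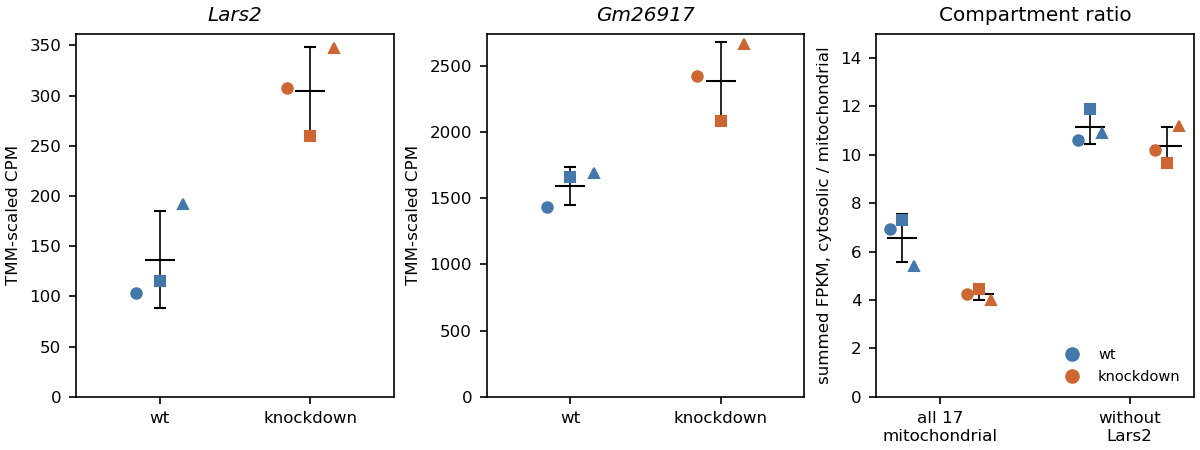
TMM-scaled CPM of Lars2 and of Gm26917 in each library, and the summed FPKM of cytosolic over mitochondrial synthetases with all 17 mitochondrial enzymes and without Lars2. Points are libraries (circle, square and triangle for replicates 1, 2 and 3), and bars are the mean and SD of 3 libraries. The ratio separates the groups with Lars2 included and overlaps without it.

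Iars2, the mitochondrial isoleucyl enzyme (chr1:185286642-185329419), was at 38.4, 53.1 and 50.2 CPM in wt and at 71.4, 62.6 and 56.5 CPM in knockdown. Its log2 fold change was 0.43 (SE 0.16, adjusted p = 0.328). The closest libraries, wt replicate 2 and knockdown replicate 3, differed by less than the SD of either group. Its longest transcript overlaps that of Rab3gap2 on the other strand by 2034 bases, and the sources do not settle whether the counting used strand, so some of its counts may belong to that gene. An overlapping gene on the other strand was annotated for 18 synthetases, among them Farsb and Vars2.

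Vars2, for valine, was at 8.55, 11.9 and 10.4 CPM in wt and at 13.9, 13.8 and 12.4 CPM in knockdown, with a log2 fold change of 0.38 (SE 0.18, adjusted p = 0.337). Wt replicate 1 was the lowest library, and the groups did not overlap.

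Mars2, for methionine, had one of the larger estimates, 0.40 (SE 0.32), but its libraries overlapped, at 3.09, 2.65 and 3.50 CPM in wt and 4.40, 5.13 and 2.65 CPM in knockdown. Only 94 to 215 counts stood behind each value. The estimate was 0.19 without knockdown replicate 2 and 0.62 without knockdown replicate 3.

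Sars2, for serine, was the mitochondrial enzyme wholly lower in knockdown. It was at 9.34, 7.98 and 8.21 CPM in wt and at 7.15, 7.40 and 7.77 CPM in knockdown, with an estimate of -0.19 (SE 0.18, adjusted p = 0.544). The nearest libraries were 7.98 and 7.77 CPM, and the groups overlapped on FPKM.

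Fars2 and Pars2, for phenylalanine and proline, both had estimates of -0.23. For Fars2 the SE was 0.16, from 17.8, 17.3 and 14.5 CPM in wt and 14.2, 12.8 and 15.4 CPM in knockdown. For Pars2 the SE was 0.63, from 0.366, 1.24 and 1.12 CPM in wt and 0.890, 1.12 and 0.301 CPM in knockdown, that is 11 to 47 counts in a library. The groups of both overlapped.

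Another 9 mitochondrial enzymes (Aars2, Cars2, Ears2, Hars2, Nars2, Rars2, Tars2, Wars2 and Yars2) had estimates between -0.08 and 0.34, and their groups overlapped. Yars2, for tyrosine and the third most abundant of the compartment per length at 5.12 FPKM, was at 7.14, 7.64 and 8.42 CPM in wt and 8.42, 9.91 and 6.73 CPM in knockdown, with an estimate of 0.11 (SE 0.22). Hars and Hars2 lie head to head on opposite strands and overlap by 198 bases.

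The genes that process and use mitochondrial transfer RNA had a median log2 fold change of 0.141, with 14 of 20 positive and none past an adjusted p of 0.05. Trnt1, which adds the CCA end of transfer RNA, and Trmt10c, a subunit of mitochondrial RNase P, had the largest estimates, each 0.54, with SEs of 0.18 and 0.20. Mto1, which modifies the wobble base, had the lowest, -0.32 (SE 0.18). The 78 mitochondrial ribosomal protein genes had a median of -0.002 with 39 positive, and of 0.081 with 52 positive without wt replicate 1.

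Levels per length set the compartments apart in every library, though their size depends on the gene lengths behind FPKM. Summed CPM, which takes no gene length, gave cytosolic to mitochondrial ratios of 5.19, 5.38 and 4.0 in wt. In knockdown these CPM ratios were 3.06, 3.29 and 2.87. The summed FPKM of the 20 cytosolic enzymes was 437, 461 and 459 in wt and 529, 560 and 472 in knockdown. That of the 17 mitochondrial enzymes was 63.0, 63.0 and 84.7 in wt and 125, 125 and 118 in knockdown. Lars2 alone made up 34.5%, 38.6% and 50.4% of the mitochondrial sum in wt and 58.7%, 53.9% and 64.4% in knockdown.

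The ratio of the cytosolic to the mitochondrial sum was 6.94, 7.31 and 5.42 in wt (6.56 ± 1.00, SD, n = 3). It was 4.24, 4.47 and 3.99 in knockdown (4.23 ± 0.238, SD, n = 3). The groups did not overlap. With Lars2 left out the ratio was 10.6, 11.9 and 10.9 in wt and 10.2, 9.68 and 11.2 in knockdown, and the groups overlapped. The ratio of the median FPKM of the compartments, which gives each gene equal weight, was 6.77, 6.53 and 7.41 in wt and 6.36, 6.55 and 6.36 in knockdown, also with overlap. Neither of these measures separated the groups.

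For 15 amino acids, a cytosolic and a mitochondrial enzyme could be set side by side, with Farsa standing for the cytosolic phenylalanyl enzyme. The cytosolic transcript was the more abundant per length in all 6 libraries for 13 of the 15. Asparagine had the widest gap, with a ratio of Nars to Nars2 between 175 and 342 in FPKM. The size of that gap depends on the gene length behind the FPKM of Nars2. In CPM the means over all libraries were 192 for Nars and 4.54 for Nars2. Leucine was reversed, with Lars to Lars2 at 0.520, 0.588 and 0.353 in wt and 0.219, 0.241 and 0.180 in knockdown. As stated above, the part of shared sequence in the Lars2 counts behind this ratio was not tested. Isoleucine was near balance, with Iars to Iars2 at 1.75, 1.42 and 1.46 in wt and 0.965, 1.20 and 1.31 in knockdown. These pairs were the 2 whose ratio was wholly lower in knockdown. Rars to Rars2 was wholly higher, at 10.5, 10.0 and 9.25 against 10.6, 11.7 and 11.6, by a margin of 0.1 or less.

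**Figure D5:**
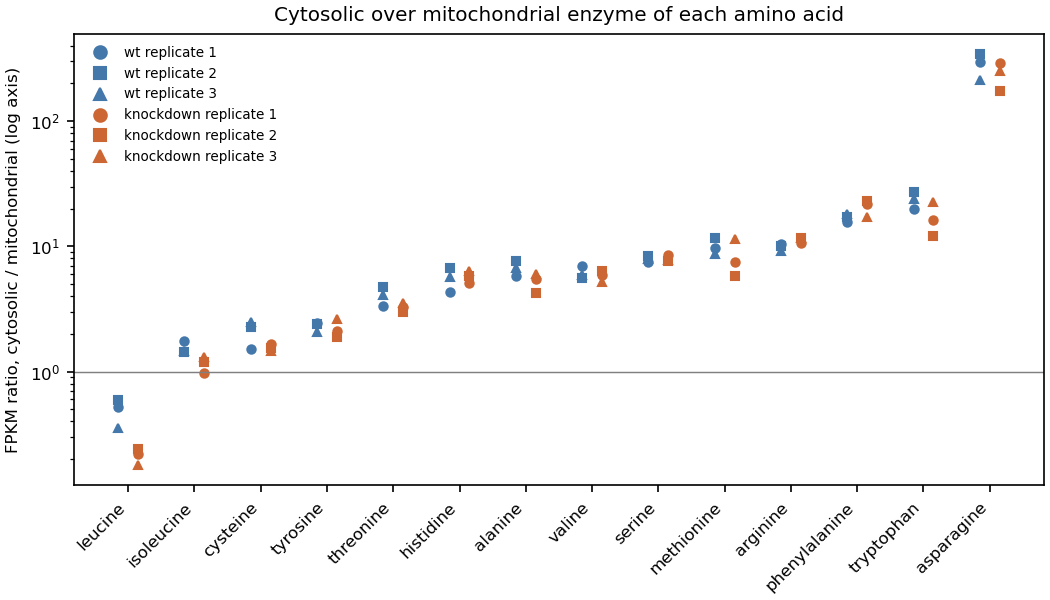
FPKM ratio of the cytosolic to the mitochondrial enzyme for each amino acid reported here in each library, on a log axis, ordered by the median ratio. Leucine lies below 1 in all 6 libraries, isoleucine close to 1, and the others above 1. The part of shared sequence in the Lars2 counts was not tested.

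By catalytic class, the 19 class I enzymes had a median log2 fold change of 0.120 with 15 positive, and the 18 class II enzymes one of 0.033 with 11 positive. Without wt replicate 1 the medians were 0.167 and 0.092, and the difference between the classes was not tested. Eprs holds a domain of each class and was counted in class I.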

How the data were processed

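RNA was sequenced from 3 wt and 3 knockdown libraries. The deposited files hold raw counts for each gene and FPKM, which the authors scaled to gene length and library size, with genome build mm10 per the submitters' processing notes. The aligner, counter and annotation are not given in the sources used here. Recomputing FPKM from the deposited counts gave a constant gene length within 0.1% for 11473 of 11473 genes checked. For sequences, RefSeq GRCm38.p6 promoters and GENCODE vM21 transcripts (BLAST 2.17.0, matches of at least 50 bases at 90% identity) were used.

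Counts were tested with edgeR 4.0.16 (R 4.3.3), TMM factors, filterByExpr (13884 genes kept) and quasi-likelihood tests, and p-values were adjusted by Benjamini-Hochberg across every gene kept. DESeq2 1.42.0 and limma 3.58.1 (log2 of FPKM plus 1 or 0.1) were alternatives, with other size factors, other filters, the replicate block and leaving out libraries. FPKM gave levels between genes. The gene lengths behind the deposited FPKM are not given. The length that counts and FPKM imply exceeded the longest annotated coding transcript for some genes, among them Farsb, Nars2, Ears2 and Fars2. A longer length gives a lower FPKM. A count of 3 equals 0.0716 to 0.0846 CPM, and such limits cover counting error only. The script was tested on simulated data. An exact two-sided permutation test of 3 against 3 cannot go below p = 0.1 and was not used.

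Per-library values are given for synthetases past an adjusted p of 0.05, with groups that do not overlap, among the 3 most abundant or the 3 largest differences in each direction of a compartment, and for Aars, Gars, Kars and Wars1. From the partner and ATF4 lists, 11 genes and the 2 largest differences in each direction could be named, and Eef1d and Eef1g were added after their values were seen. Members and lists were chosen with earlier results of these data known. The single values of 1 member and 1 promoter stretch are not reported here, while counts, medians and sums include that member.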

Additional observations from a re-analysis of the deposited data

How the results depend on the processing

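The median log2 fold change of the cytosolic synthetases was 0.03 in the fit reported, 0.07 with upper-quartile factors, and 0.17 and 0.18 with limma on log2 FPKM plus 1 and plus 0.1, settings that moved the median of all genes by 0.04, 0.07 and 0.14. DESeq2 called 36 genes and 1 synthetase, and DESeq2 without wt replicate 1 and knockdown replicate 3, chosen after seeing the data, 1284 genes and 1 synthetase, Lars2 in both, with a cytosolic minus mitochondrial median of -0.23. edgeR on those 4 libraries called 0 genes (3290 at an unadjusted p under 0.05), with a mitochondrial median of 0.27 and a compartment difference of -0.23. Leaving out 1 library at a time, the mitochondrial median ran from -0.01 to 0.24 and the compartment difference from -0.19 to 0.02, where the values of -0.01 and 0.02 came from leaving out knockdown replicate 2. The compartment difference was -0.10 as reported and 0.01 with limma on log2 FPKM plus 1. The log2 difference of the compartment ratio was -0.62 as reported, -0.10 from medians and -0.10 with Lars2 left out, the latter chosen after seeing the data. In the 4 libraries, 20 synthetases were wholly higher and 8 wholly lower, where 31.4% and 26.3% of all genes were.

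Estimates near 0 changed sign. Nars was 0.06 and Qars 0.08 under both limma settings, and leaving out 1 library at a time Qars ran from -0.13 to 0.01 (above 0 without wt replicate 1), Pars2 from -0.61 to 0.14 (0.05 without wt replicate 2 and 0.14 without knockdown replicate 3) and Yars2 from -0.04 (without knockdown replicate 2) to 0.24. The cause was not tested. The replicate numbers were taken as names of separate samples. Deviations of same-numbered libraries from their group means correlated at -0.241, 0.0605 and -0.337. With means of only 3 libraries, these values cannot decide whether samples were paired. With the replicate block 0 synthetases were called and the log2 estimate for Lars2 was 1.21, with an edgeR adjusted p of 0.408.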

Other observations

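Tarsl2, the threonyl-like enzyme outside the naming rule, was read at 2.31, 5.05 and 5.96 CPM in wt and at 7.35, 9.19 and 5.11 CPM in knockdown, with a log2 fold change of 0.70 (SE 0.39, edgeR adjusted p = 0.364). The groups overlapped through knockdown replicate 3.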
